A study of Ovis aries with 8 samples.

Results

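The nuclear genes of oxidative phosphorylation were compared by complex between the livers of RES lambs and ADL lambs. A gene was counted as a member if it lies outside the mitochondrial chromosome, is not described as a pseudogene, and has a symbol that starts with NDUF, UQCR, ATP5 or a nuclear COX family name (COX4 to COX8), or is SDHA, SDHB, SDHC, SDHD, CYC1 or CYCS. This rule used no expression value and gave 68 of the 27729 genes in the deposited table. They are 38 genes of complex I, 8 of its assembly factors, 4 of complex II, 1 each of complexes III and IV, and 16 with ATP synthase symbols. All 68 were found as protein-coding genes in a sheep RefSeq gene table, 16 of them, the ATP5 genes, under newer symbols. In the deposited table CYC1, CYCS and nearly all subunits of complexes III and IV stand under LOC symbols with a description. The rule's UQCRH and COX5A therefore stand for little of complexes III and IV, and the LOC genes are described beside them. The RefSeq gene table lists some of these LOC genes as pseudogenes and lacks others.

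RNA of liver pieces was selected for poly(A) tails and sequenced from 4 RES lambs and 4 ADL lambs. The labels do not spell the group names out, and the series title speaks of fattening lambs after feed restriction while suckling. All 8 lambs had a slaughter weight of 27 kg in their labels, and their age, breed and sex were not used here. Each library came from its own lamb, so the spread is that between animals, and each held 14514084 to 16182407 reads assigned to genes.

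Oxidative phosphorylation takes electrons from NADH at complex I and from succinate at complex II, hands them through ubiquinone, complex III and cytochrome c to complex IV, and uses the proton gradient built on the way to drive ATP synthase. Complexes I, III, IV and ATP synthase combine subunits from the mitochondrial genome with subunits from nuclear genes, and complex II is nuclear only. In hepatocytes this machinery pays for costly work such as urea and glucose synthesis.

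None of the members passed limma's test between the groups. Levels are in TPM, the share of a gene among all transcripts after correction for its length, and the 67 members that averaged 1 TPM or more over the lambs were tested. At an adjusted p under 0.05, 0 of these 67 were called, as were 0 of the 13437 genes tested (0%) and 0 by limma's voom on whole reads recovered from the TPM values, and the lowest adjusted p of a member was 0.395. Differences are RES minus ADL on the log2(TPM + 1) scale throughout, with limma's SE, and on this scale they understate the change of low genes. They ran from -0.20 to 0.45 over the members. The 95% interval lay within a 1.5-fold change either way for 64 members and within a 1.25-fold change for 36. The 3 members with a wider interval were NDUFA1, NDUFB1 and NDUFAF2.

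At an unadjusted p under 0.05, 4 members were higher in RES (NDUFB1, NDUFA1, NDUFAF2 and NDUFAF4), which is 5.97% of the members tested, against 10.4% of all genes tested. On the lower side there were 2 members (NDUFA10 and NDUFA13), or 2.99%, against 1.5% of all genes. The groups did not overlap for 2 members on the higher side (2.99% of members, 6.61% of all genes) and 2 on the lower side (2.99% of members, 0.781% of all genes). All of these were complex I genes or its assembly factors. The median of all tested genes lay 0.09 higher in RES, and 71.0% of all tested genes were higher. Of the members 38 were higher and 29 lower, with a median of 0.03, and 16 lay above the median of all genes. Division by median-of-ratios size factors, here called scaling, moves the median of all genes to 0.01. After scaling 15 members were higher and 52 lower, with a median of -0.07, beside 51.6% of all tested genes higher. The signs of the members thus turned with the scaling. The median of the members lay below that of all tested genes before and after it.

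**Figure D1:**
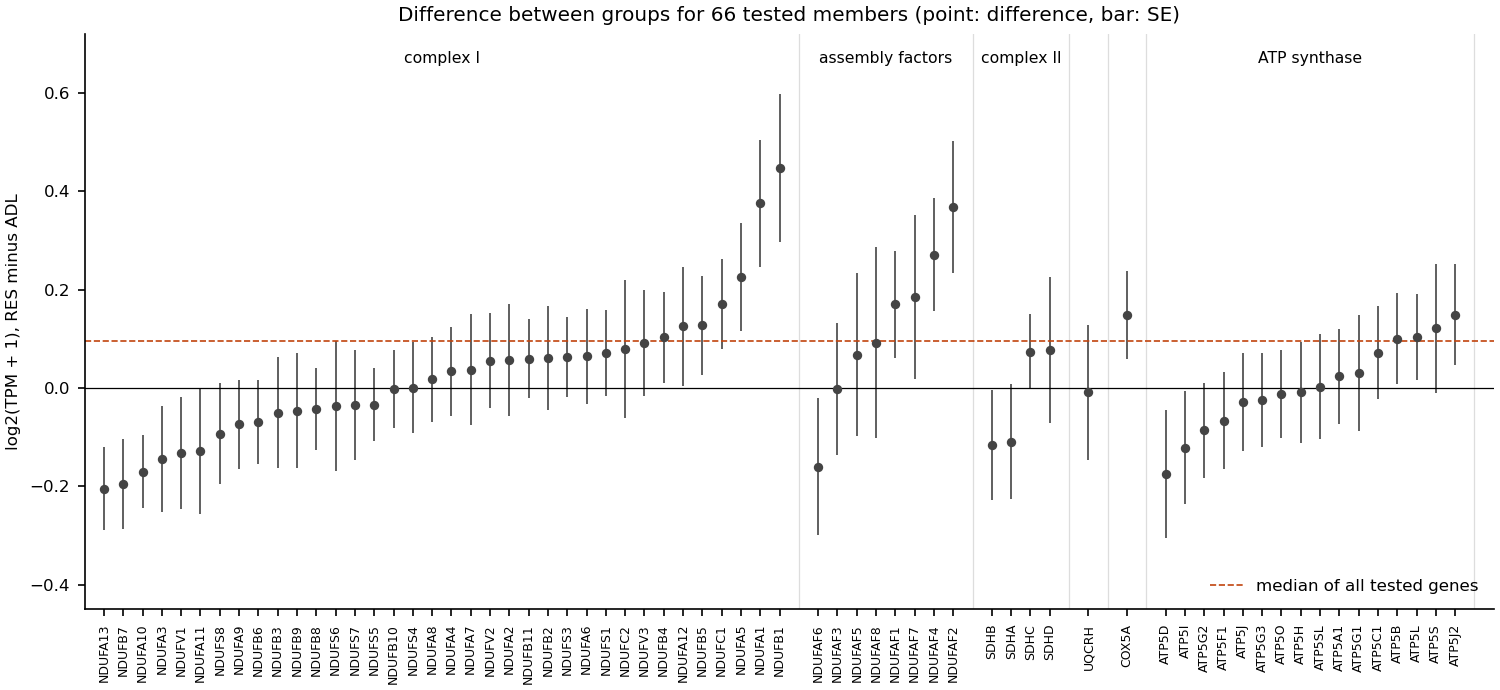
Differences of 66 of the 67 tested members, RES minus ADL on the log2(TPM + 1) scale, with limma's SE as the bar, ordered within each complex; UQCRH is the lone point of complex III and COX5A that of complex IV. The dashed line is the median of all tested genes (0.09); the members run from -0.20 to 0.45, most of them below that line.

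Transcripts of the enzymes' own subunits were abundant. ATP5B, the catalytic beta subunit of ATP synthase, was the most abundant member, with a mean of 540 TPM over the 8 lambs. Members of ATP synthase had a median of 177 TPM, those of complex II 162 TPM and those of complex I 78.4 TPM. The 8 assembly factors lay between 5.39 and 18.4 TPM. TPM values are per gene length, so these levels can be set side by side. Summed over all members, the genes held 8043, 7331, 7068 and 6716 TPM in RES lambs 1 to 4, against 7408, 7291, 7220 and 7017 TPM in ADL lambs 1 to 4. The mean sums were 7290 ± 562 TPM in RES and 7234 ± 164 TPM in ADL (SD over the 4 lambs of a group, as for every TPM mean that follows), and the ADL values lay inside the RES range. In bulk liver, fewer cells of a type and less RNA per cell cannot be told apart.

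**Figure D2:**
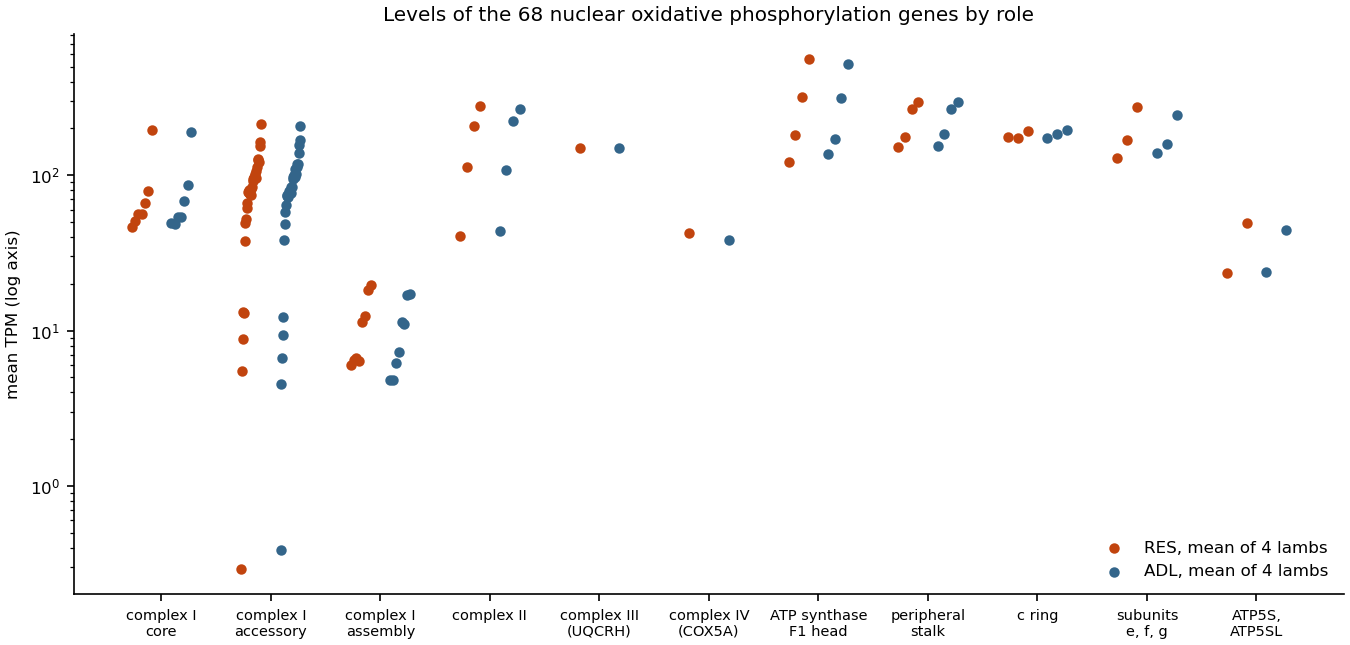
Mean TPM of each of the 68 members by role, on a log axis, with RES means to the left of ADL means (4 lambs each). Subunits of ATP synthase and complex II lie mostly above 100 TPM and assembly factors of complex I between 4.79 and 19.5 TPM; the lowest point is NDUFA4L2.

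Complex I, the NADH dehydrogenase, was split in the deposited values and mostly lower in RES after scaling. Its members summed to 3113 ± 203 TPM in RES and 3116 ± 14.5 TPM in ADL. The 4 ADL sums ran from 3096 to 3131 TPM, while the RES sums ran from 2925 to 3390 TPM. Of its 37 tested genes 21 were higher and 16 lower in RES, with a median difference of 0.03, beside 71.0% of all tested genes higher. After scaling 7 were higher and 30 lower, with a median of -0.07, beside 51.6% of all tested genes higher. The 7 core subunits, which carry the flavin and iron-sulfur centres and the ubiquinone site, split into 4 higher and 3 lower, with differences from -0.13 (NDUFV1, which binds the flavin) to 0.07 (NDUFS1). After scaling 0 of the core subunits were higher and 7 lower, with a median of -0.06.

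The accessory subunits of complex I, which surround the core and are needed to assemble it, held all of its members at an unadjusted p under 0.05. NDUFB1, a small subunit of the membrane arm, had 12.1, 17.2, 12.0 and 11.3 TPM in RES lambs 1 to 4, against 8.84, 10.8, 7.54 and 10.1 TPM in ADL lambs 1 to 4. Every RES lamb lay above every ADL lamb, and RES lamb 2 stood apart from the other RES lambs. The difference was 0.45 ± 0.15 (limma adjusted p = 0.395). The gene is 300 bases long and held 19 to 41 reads per lamb, and after scaling the groups overlapped.

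NDUFA1, another small membrane subunit, had 9.70, 10.4, 7.38 and 8.14 TPM in RES lambs, against 5.62, 6.14, 7.72 and 6.98 TPM in ADL lambs. The groups overlapped, since ADL lamb 3 lay above RES lamb 3. The difference was 0.38 ± 0.13 (limma adjusted p = 0.395), on 17 to 33 reads per lamb. NDUFC1, also of the membrane arm, had 109.9, 92.8, 88.8 and 88.8 TPM in RES lambs, against 85.8, 88.7, 81.4 and 80.3 TPM in ADL lambs. Its groups were apart by a narrow gap between RES lamb 4 and ADL lamb 2, with a difference of 0.17 ± 0.09 (limma adjusted p = 0.464), and overlapped after scaling.

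On the lower side, NDUFA10, an accessory subunit related to nucleoside kinases, had 79.0, 71.8, 74.0 and 75.3 TPM in RES lambs, against 82.6, 86.9, 89.4 and 79.5 TPM in ADL lambs. All 4 RES lambs lay below all 4 ADL lambs. The difference was -0.17 ± 0.07 (limma adjusted p = 0.417), or -0.27 after scaling. NDUFA13, also known as GRIM-19 and as a binding partner of STAT3, had 131.0, 122.9, 121.1 and 108.4 TPM in RES lambs, against 141.3, 136.3, 148.0 and 131.2 TPM in ADL lambs. Here too the groups did not overlap, with RES lamb 1 and ADL lamb 4 nearly touching. The difference was -0.20 ± 0.08 (limma adjusted p = 0.411), or -0.31 after scaling. In both genes the SD was under 10 TPM in either group.

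NDUFB7 was named after its values were seen. This subunit, on the intermembrane side of the membrane arm, had 104.3, 98.6, 95.6 and 85.8 TPM in RES lambs, against 118.1, 99.1, 110.1 and 113.2 TPM in ADL lambs. ADL lamb 2 lay within the RES range, and the difference was -0.20 ± 0.09 (limma adjusted p = 0.432). After scaling NDUFB7 no longer overlapped, nor did NDUFS5, also named after its values were seen, at 153 ± 8.99 TPM in RES and 157 ± 3.20 TPM in ADL. Scaled, 4 members were thus lower without overlap (5.97% of members, 2.41% of all genes) and 0 were higher (2.22% of all genes). At an unadjusted p under 0.05, the scaled values had 3 members lower (4.48%, against 4.25% of all genes) and 1 higher (1.49%, against 3.4%). Voom had the same 3 lower (4.13% of all genes) and 0 higher (3.7% of all genes).

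**Figure D3:**
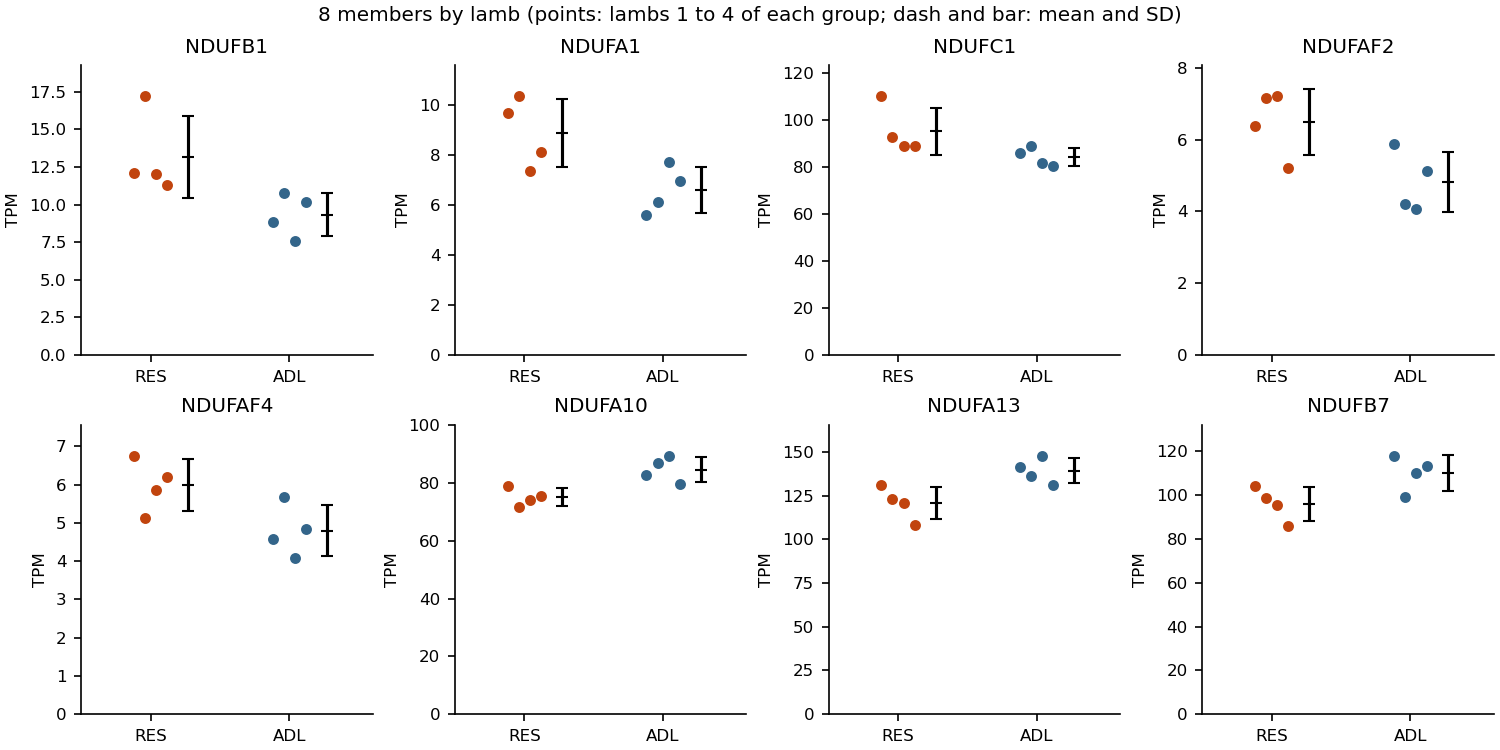
TPM of 8 members of complex I and its assembly factors in each lamb, with RES left of ADL; points are lambs and the dash and bar are the mean and SD of 4 lambs, on axes that start at 0. RES and ADL do not overlap for NDUFB1, NDUFC1, NDUFA10 and NDUFA13 and overlap for the other genes.

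The authors' deposited table gave a p under 0.05 to 3 members, all lower in RES, while 2.67% of its genes with a p were lower and 2.51% higher at that mark. They were NDUFA10, with a shrunken log2 fold change of -0.26 in the authors' deposited table (adjusted p = 0.204), NDUFA13 with -0.28 in the authors' deposited table and NDUFB7 with -0.27. None of the 52 members with an adjusted p in the authors' deposited table was under 0.05, where 0.231% of the 5627 genes with one were. NDUFB1, NDUFA1 and NDUFAF2 have no adjusted p there. Both that table and the limma fit rest on the same reads.

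Of the remaining complex I genes, NDUFA4 was the most abundant accessory gene by symbol, although its protein is now placed with complex IV in human cells. It had 213.3, 203.9, 239.4 and 197.3 TPM in RES lambs, against 205.7, 214.3, 189.8 and 223.7 TPM in ADL lambs, with RES and ADL lambs interleaved. NDUFA4L2, its relative known in human cells for induction by low oxygen, had 0 to 0.769 TPM in RES lambs and 0.121 to 0.527 TPM in ADL lambs and was the 1 member left out of the test. NDUFA5 had the lowest level of the tested members, 5.47 ± 0.467 TPM in RES and 4.55 ± 0.682 TPM in ADL. Genes described as the same subunit, LOC101114379 and LOC101122926, together held 15.6 times as many TPM as NDUFA5. That ratio rests on annotated lengths of 420 and 552 bases for these 2 genes, against 1356 bases for NDUFA5. In reads per lamb they held 109 to 168 and 129 to 189, against 45 to 60 for NDUFA5. LOC101122926 is missing from the RefSeq gene table.

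The complex I assembly factors, chaperones that are not part of the finished enzyme, were higher in RES for 6 of 8 genes, with a median difference of 0.13. After scaling the split was 4 to 4 and the median 0.03. NDUFAF2, which binds a late assembly intermediate, had 6.39, 7.16, 7.21 and 5.21 TPM in RES lambs, against 5.86, 4.20, 4.07 and 5.13 TPM in ADL lambs. RES lamb 4 lay below ADL lamb 1, and the difference was 0.37 ± 0.13 (limma adjusted p = 0.395). NDUFAF4, a partner of NDUFAF3 in early assembly, had 6.76, 5.13, 5.86 and 6.19 TPM in RES lambs, against 4.59, 5.67, 4.07 and 4.85 TPM in ADL lambs. The lambs overlapped between RES lamb 2 and ADL lamb 2, and the difference was 0.27 ± 0.12 (limma adjusted p = 0.415). NDUFAF1, the most abundant of the 8 and a member of the complex that builds the membrane arm, stood at 19.5 ± 2.03 TPM in RES and 17.3 ± 2.00 TPM in ADL. NDUFAF6 had the lowest difference, -0.16 ± 0.14.

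Complex II, succinate dehydrogenase, also serves the citric acid cycle, and its 4 genes split evenly. SDHA, the flavoprotein that oxidises succinate, had 218.1, 223.5, 221.1 and 165.4 TPM in RES lambs, against 232.1, 195.5, 228.7 and 232.9 TPM in ADL lambs. RES lamb 4 and ADL lamb 2 were the low lambs. SDHB, the iron-sulfur subunit, had 46.7, 42.2, 37.7 and 34.8 TPM in RES lambs, against 49.0, 39.8, 44.9 and 41.1 TPM in ADL lambs. The differences of the pair were -0.11 ± 0.12 for SDHA and -0.12 ± 0.11 for SDHB, both within the spread between lambs (limma adjusted p = 0.702 for SDHA).

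The membrane anchors SDHC and SDHD lay on the other side of 0 in the deposited values and below it after scaling. SDHC had 276.7, 277.7, 287.2 and 275.0 TPM in RES lambs, against 288.5, 260.0, 250.5 and 262.9 TPM in ADL lambs, and was among the steadiest members, with a within-group SD of 0.0642 on the log2 scale. SDHD had 126.9, 119.1, 95.7 and 107.3 TPM in RES lambs, against 135.1, 112.7, 87.2 and 94.2 TPM in ADL lambs. The differences were 0.07 ± 0.08 for SDHC and 0.08 ± 0.15 for SDHD, and -0.03 for each after scaling. Genes described as SDHD copies, LOC780772 and LOC780442, held 4.31 times the TPM of SDHD itself. The 4 subunits of complex II assemble in equal numbers, yet their transcripts ranged from 42.0 TPM for SDHB to 272 TPM for SDHC. These values rest on the annotated gene lengths and leave copies out. LOC101110243, described as the subunit of SDHB but listed as a pseudogene in the RefSeq gene table, held 0.688 times the TPM of SDHB.

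Complex III, which passes electrons from ubiquinone to cytochrome c, has 1 member by symbol. UQCRH, its hinge subunit next to cytochrome c1, had 179.1, 139.8, 149.7 and 129.5 TPM in RES lambs, against 180.5, 154.2, 143.6 and 124.5 TPM in ADL lambs. The groups covered the same range, and the difference was -0.01 ± 0.14. Under LOC symbols, 8 further genes are described as subunits of complex III, of which 3 were higher and 5 lower in RES, with a median of -0.05, and after scaling 1 was higher and 7 lower, with a median of -0.15. Subunit 8 was the most abundant of them, at 260 TPM over the 8 lambs. CYC1, cytochrome c1, is LOC101113599 by its description. It had 100.1, 89.7, 73.5 and 71.9 TPM in RES lambs, against 95.4, 85.5, 86.0 and 80.4 TPM in ADL lambs, with the ADL lambs inside the RES range. LOC101119721, described as subunit 10, was the 1 LOC gene of 31 tested with an unadjusted p under 0.05, and is named for that. It had 77.9, 83.8, 68.5 and 65.6 TPM in RES lambs, against 93.5, 78.9, 95.7 and 86.3 TPM in ADL lambs. Its groups overlapped at ADL lamb 2, and its difference was -0.26 (limma adjusted p = 0.409). That 1 lower gene of 31 stands beside 1.5% of all tested genes. The number with an unadjusted p under 0.05 changed with the scaling. It was 5 LOC genes with size factors, all lower, beside 4.25% of all genes, and 3 with voom, all lower, beside 4.13%. Those 5 include LOC101110243, a pseudogene in the RefSeq gene table.

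Cytochrome c, the soluble carrier between complexes III and IV, is LOC106990092. It had 19.2, 11.9, 8.02 and 8.32 TPM in RES lambs, against 6.65, 11.1, 8.61 and 9.56 TPM in ADL lambs. RES lamb 1 was the high lamb, and the other lambs of both groups overlapped. The other 3 genes described as cytochrome c-like were listed at 0 in every lamb, as were 10 of the 47 LOC genes in all.

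Complex IV, cytochrome c oxidase, has COX5A as its member by symbol. COX5A, a subunit on the matrix side, had 44.1, 41.4, 39.7 and 44.0 TPM in RES lambs, against 39.1, 42.6, 37.1 and 34.0 TPM in ADL lambs. The difference was 0.15 ± 0.09 (limma adjusted p = 0.499), and ADL lamb 2 lay within the RES range. LOC101117799, described as the same subunit, held more TPM than COX5A itself, and with both summed the difference was 0.03. Over the 11 tested LOC genes of complex IV, 6 were higher and 5 lower in RES, with a median of 0.00, and after scaling 3 were higher and 8 lower, with a median of -0.10.

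Several subunits of complex IV exist as isoforms made by different genes, some of them known from muscle, testis or lung. In these livers COX4I1 (LOC101105179) had 290 TPM over the 8 lambs, while its partner COX4I2, known from lung, had 0.115 TPM. COX6A1 (LOC101117965) had 266 TPM, against 0.0448 TPM for COX6A2, the heart and muscle form. COX6B1 (LOC101121538) had 225 TPM and COX7B (LOC101116886) 270 TPM, against 0.354 TPM for COX6B2 and 0.275 TPM for COX7B2, both known from testis. COX8A (LOC106991840) had 143 TPM.

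The COX7A pair was the exception. COX7A1 (LOC101121285), known as the heart and muscle isoform, had 88.5, 86.5, 160.5 and 35.2 TPM in RES lambs, against 54.3, 94.4, 82.7 and 34.9 TPM in ADL lambs. It varied widely between lambs, with lamb 4 of each group lowest. COX7A2 (LOC101110066), the form found in liver of other species, had 15.0, 14.1, 14.2 and 14.2 TPM in RES lambs, against 16.1, 11.8, 12.9 and 11.3 TPM in ADL lambs. COX7A1 thus made up 71.3 to 91.9% of the summed pair in RES lambs and 75.5 to 88.9% in ADL lambs. The difference of COX7A1 between the groups was 0.38 ± 0.45 (limma adjusted p = 0.727). The 8 markers of skeletal and heart muscle together summed to 1.63 to 2.49 TPM in RES lambs and 1.99 to 2.63 TPM in ADL lambs. The names are the table's descriptions, and reads of near-identical copies could not be checked against sequence.

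**Figure D4:**
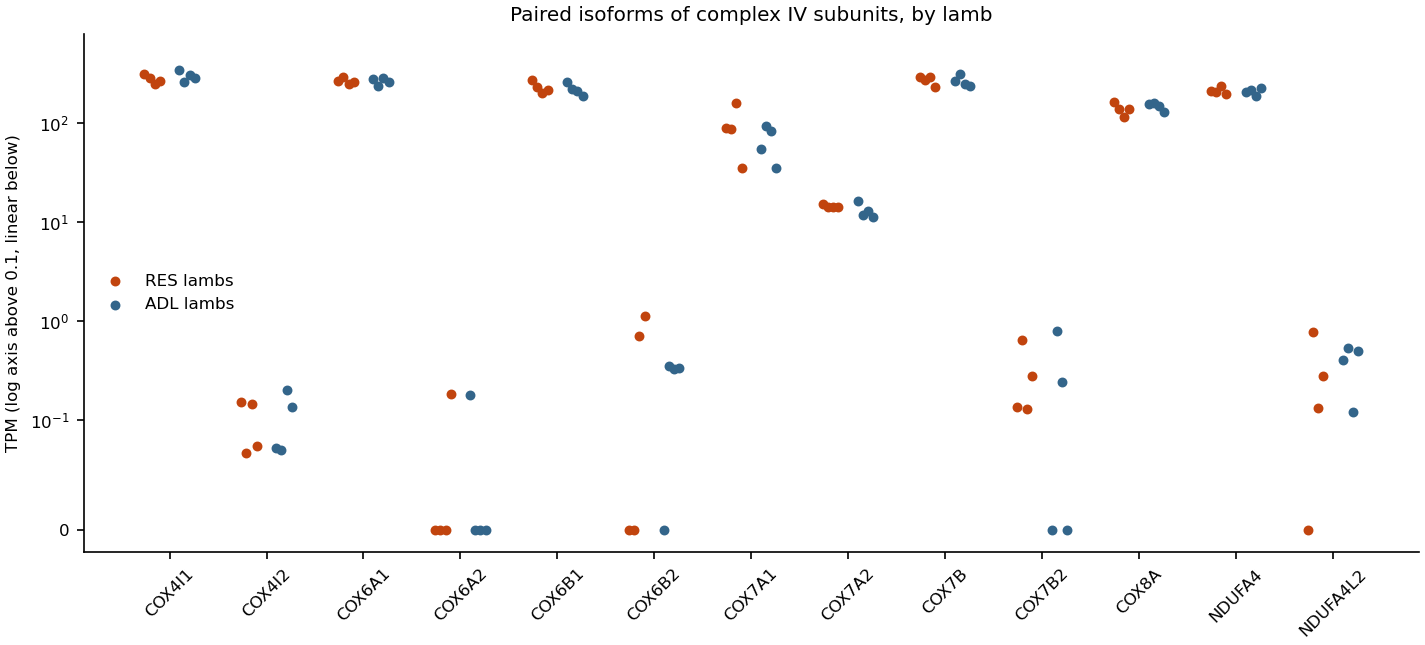
TPM in each lamb of paired isoform genes of complex IV, named from the descriptions, with RES left of ADL; the axis is logarithmic above 0.1 and linear below, so 0 can be shown. COX7A1 lies above COX7A2 in every lamb, while COX4I2, COX6A2, COX6B2, COX7B2 and NDUFA4L2 lie at or near 0.

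ATP synthase turns the proton gradient into ATP. Its 16 genes by symbol, which include ATP5S and ATP5SL (now DMAC2L and DMAC2, not subunits of the enzyme), split into 8 higher and 8 lower in RES, with a median of -0.00, and after scaling into 3 higher and 13 lower, with a median of -0.10. Their sums were 3259 ± 300 TPM in RES and 3211 ± 111 TPM in ADL. ATP5B had 615.8, 567.5, 529.7 and 520.3 TPM in RES lambs, against 528.9, 527.4, 556.8 and 469.8 TPM in ADL lambs. RES lamb 1 was highest and ADL lamb 4 lowest, with a difference of 0.10 ± 0.09 that was -0.00 after scaling.

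In the F1 head, the catalytic part, ATP5D, the delta subunit of the rotor, had the lowest difference. It had 131.0, 143.4, 101.8 and 108.3 TPM in RES lambs, against 145.8, 121.1, 151.7 and 126.1 TPM in ADL lambs, with a difference of -0.17 ± 0.13 (limma adjusted p = 0.576). The 4 genes of the peripheral stalk, which holds the head still, were all slightly lower, from -0.07 to -0.01, none beyond its SE. ATP5J2, subunit f of the membrane part, had 318.6, 272.2, 264.2 and 238.5 TPM in RES lambs, against 247.7, 244.2, 227.0 and 263.5 TPM in ADL lambs, with a difference of 0.15 ± 0.10. The lowest RES lamb, lamb 4, lay among the ADL lambs.

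The c ring, the rotor turned by protons, is made from a protein that 3 genes encode with the same mature sequence. ATP5G1 had 207.1, 180.8, 163.5 and 154.3 TPM in RES lambs, against 165.3, 201.7, 161.9 and 160.8 TPM in ADL lambs. ATP5G2 had 184.6, 166.3, 182.3 and 156.9 TPM in RES lambs, against 197.5, 167.5, 200.1 and 168.7 TPM in ADL lambs. ATP5G3 had 214.4, 203.7, 179.6 and 175.9 TPM in RES lambs, against 182.1, 213.1, 189.2 and 201.3 TPM in ADL lambs. All 3 were expressed at similar levels, 174, 178 and 195 TPM over the 8 lambs, and each overlapped between the groups. None of the differences, 0.03 for ATP5G1, -0.09 for ATP5G2 and -0.02 for ATP5G3, exceeded its SE.

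Members tended to stand high or low together in a lamb. The counts of highest and lowest lambs that follow are of the deposited TPM. RES lamb 1 was the highest of the 8 lambs for 32 of the 67 members (47.8%), against 19.1% of all genes tested. RES lamb 4 was the lowest for 25 members (37.3%), against 10.5% of all genes, although it was the highest lamb for 28.2% of all genes. The median deviation of complex I genes from the mean of 8 lambs was 0.13, 0.04, -0.07 and -0.08 in RES lambs 1 to 4, against -0.02, 0.00, 0.02 and -0.01 in ADL lambs 1 to 4. Those of ATP synthase were 0.18, 0.04, -0.02 and -0.14 in RES lambs, against 0.02, 0.04, -0.04 and -0.06 in ADL lambs. In the deposited values both complexes thus spread further over the RES lambs than over the ADL lambs, with the same lambs at the ends. After scaling, the complex I medians were 0.07, 0.02, -0.10 and -0.18 in RES lambs, against 0.04, 0.03, 0.10 and 0.02 in ADL lambs. Those of ATP synthase were 0.12, 0.03, -0.05 and -0.24 in RES lambs, against 0.08, 0.06, 0.05 and -0.04 in ADL lambs. RES lamb 4 stayed lowest for both, while ADL lamb 3 was then highest for complex I. The SD of the TPM values was larger over RES than over ADL lambs for 45 members (67.2%), against 59.3% of all genes tested, and for 39 members (58.2%) after scaling, against 55.2% of all genes. The median within-group SD on the log2 scale was 0.140 for members and 0.181 for all tested genes, or 0.168 for those averaging 5 TPM or more.

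**Figure D5:**
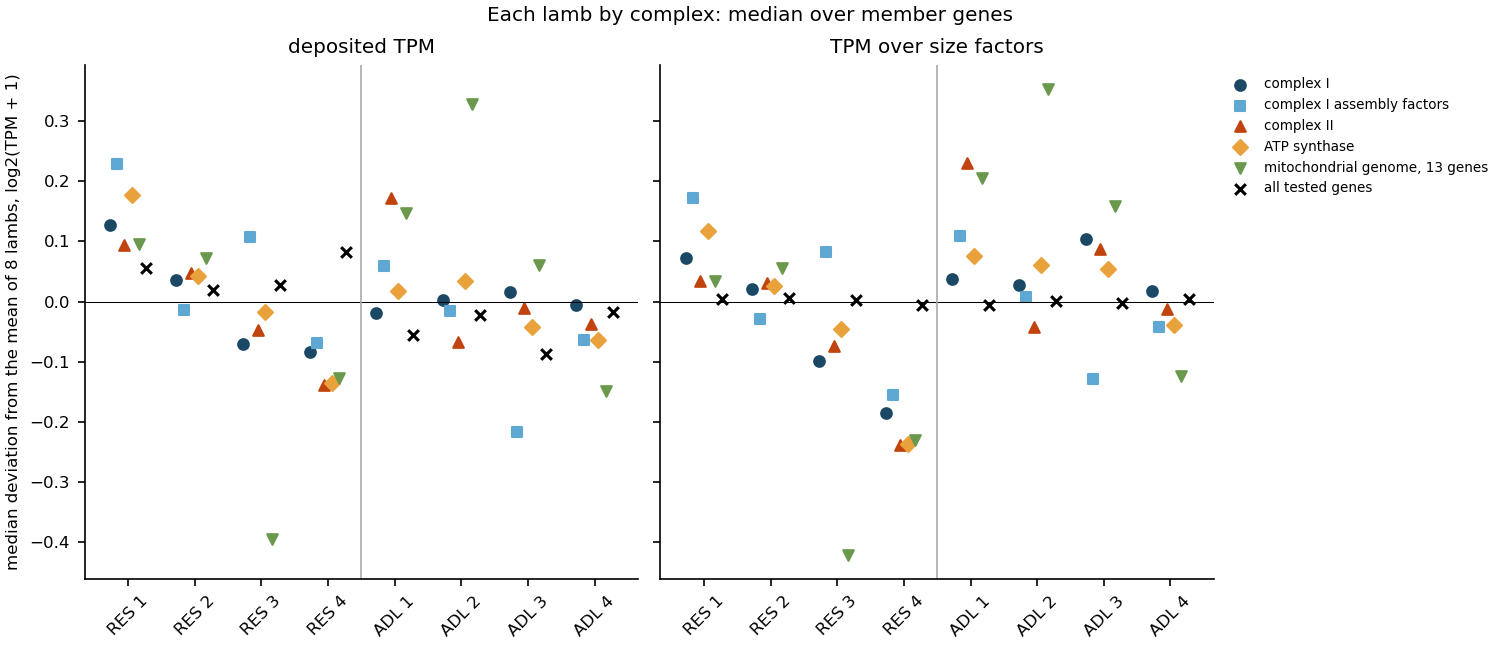
Median deviation of the genes of each complex from their mean over 8 lambs, log2(TPM + 1) scale, for each lamb, with RES lambs left of ADL lambs; the left panel shows the deposited TPM and the right panel TPM divided by size factors. RES lamb 1 lies highest and RES lamb 4 lowest among the RES lambs for complex I and ATP synthase in both panels, with medians between 0.18 and -0.14 in the deposited values.

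Gene length and level differed among members and went with the differences. The 37 members shorter than 1000 bases had a median difference of 0.00, against 0.03 for all such short genes, and the 30 longer members had 0.06, against 0.10. The 14 members with a mean under 40 TPM had a median of 0.13, against 0.10 for all such genes. The 53 members at or above that level had 0.00, against 0.05. With a trend over gene length removed from each lamb, the medians were -0.02 for the shorter members and -0.03 for the longer ones. Those of all tested genes were then 0.01 for either length. The part of gene length and level in the results was not tested.

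The mitochondrial genome encodes the partners of the nuclear subunits. Its 13 protein genes were all lower in RES, with a median difference of -0.19, while 71.0% of all tested genes were higher. As genes of the same genome they may not vary independently. They summed to 66884 ± 9483 TPM in RES and 73755 ± 6660 TPM in ADL. By lamb the sums were 71909.5, 71879.8, 52671 and 71075 TPM in RES lambs 1 to 4, against 73565.5, 83163.7, 70152 and 68139.8 TPM in ADL lambs 1 to 4. RES lamb 3 was the low lamb, and the other RES lambs lay inside the ADL range. In these sums ATP8 held 14101 TPM in RES lamb 4 and 13291 TPM in ADL lamb 4, against 3490 to 5743 TPM in the other lambs. For complex I, the 7 mitochondrial genes had a median of -0.25 and the 37 nuclear genes one of 0.03. For complex IV the medians were -0.02 over 3 mitochondrial genes and 0.00 over the 11 LOC genes. None of the 13 passed the limma test, with a lowest adjusted p of 0.395. That was ND3, with a difference of -0.74 ± 0.15 and groups apart, at 820 to 1272 TPM in RES and 1457 to 1981 TPM in ADL. RES lamb 3 was the lowest lamb for the mitochondrial genes, with a median deviation of -0.39, and RES lamb 4, the lowest for nuclear members, stood at -0.13. Poly(A) selection captures mitochondrial transcripts only in part.

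Genes that build or regulate the complexes were described from lists chosen with earlier results known. No gene of these lists passed the adjusted threshold. Of 15 tested regulators of respiratory chain genes, 11 were higher in RES and 4 lower, with a median of 0.15. At an unadjusted p under 0.05, 5 were higher and 0 lower, beside 10.4% and 1.5% of all tested genes. After scaling 10 were higher with a median of 0.06, and 0 in either direction had an unadjusted p under 0.05, beside 3.4% of all genes higher and 4.25% lower. TFAM, which packages and transcribes mitochondrial DNA, had 20.5, 19.4, 19.97 and 20.3 TPM in RES lambs, against 18.1, 15.7, 16.7 and 16.9 TPM in ADL lambs. All RES lambs lay above all ADL lambs, and the difference was 0.24 ± 0.07 (limma adjusted p = 0.395). TFB1M, a methyltransferase of mitochondrial ribosomal RNA, stood at 6.80 ± 0.953 TPM in RES and 5.18 ± 0.663 TPM in ADL, with overlapping groups.

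Of 25 assembly genes of complex IV, 17 were higher and 8 lower in RES, with a median of 0.05. At an unadjusted p under 0.05, 4 were higher and 1 lower, beside the same 10.4% and 1.5% of all genes. After scaling 10 of the 25 were higher, with a median of -0.03, and 2 were higher and 1 lower at that mark, beside 3.4% and 4.25%. COA7 (LOC101116001), an assembly factor of complex IV, had 16.9, 14.8, 12.1 and 19.6 TPM in RES lambs, against 7.66, 12.2, 7.91 and 10.5 TPM in ADL lambs. The groups overlapped only between RES lamb 3 and ADL lamb 2, and the difference was 0.68 ± 0.18 (limma adjusted p = 0.395). COX18 (LOC101103154), which helps to insert COX2 into the membrane, had 5.84, 6.89, 7.36 and 7.28 TPM in RES lambs, against 4.78, 5.16, 5.34 and 5.53 TPM in ADL lambs, with no overlap and a difference of 0.34 ± 0.10 (limma adjusted p = 0.395).

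In the deposited values the other lists had fewer genes at an unadjusted p under 0.05. There was 1 of 5 for ATP synthase assembly (TMEM70) and 1 of 7 for electron entry to ubiquinone (SQRDL). Both were higher, beside 10.4% of all genes, and the rest of these lists had 0. Of all tested genes, 71.0% were higher in RES. For ATP synthase assembly, 2 of 5 genes were higher, among them TMEM70, which helps to build the c ring, at 33.7 ± 1.93 TPM in RES and 28.2 ± 4.14 TPM in ADL. FMC1, with the next smallest p of that list, was not one of the higher genes, at 22.2 ± 4.17 TPM in RES and 23.9 ± 3.08 TPM in ADL. All 4 assembly genes of complex II were higher, SDHAF4 at 9.49 ± 1.36 TPM in RES and 7.68 ± 0.882 TPM in ADL, and SDHAF2, which helps to attach the flavin, at 25.2 ± 1.46 TPM in RES and 22.6 ± 1.68 TPM in ADL. For complex III 5 of 6 were higher, and 2 of 6 after scaling, with BCS1L (LOC101111607), which inserts the Rieske protein, at 9.29 ± 0.683 TPM in RES and 8.01 ± 1.44 TPM in ADL, and TTC19 at 14.8 ± 1.52 TPM in RES and 13.3 ± 1.16 TPM in ADL. Of 9 complex I assembly genes outside the NDUFAF symbols 6 were higher, and the smallest p belonged to COA1 (LOC101118606), at 9.73 ± 2.28 TPM in RES and 11.8 ± 1.05 TPM in ADL, and FOXRED1, at 205 ± 41.1 TPM in RES and 259 ± 46.7 TPM in ADL. After scaling 5 of the 9 were higher. At an unadjusted p under 0.05, 2 of them (COA1 and FOXRED1) were then lower, beside 4.25% of all genes, and 0 higher.

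Among carriers that move ADP and phosphate or uncouple the membrane, 2 of 5 tested genes were higher. SLC25A6, an exchanger of ADP and ATP, stood at 139.9 ± 25.1 TPM in RES and 173 ± 25.7 TPM in ADL, and SLC25A3, the phosphate carrier, at 161 ± 21.1 TPM in RES and 147 ± 8.47 TPM in ADL. Of 7 enzymes that feed electrons to ubiquinone by other routes 4 were higher, with SQRDL, which oxidises sulfide, at 52.9 ± 4.66 TPM in RES and 45.3 ± 3.15 TPM in ADL and PRODH (LOC101107260), proline dehydrogenase, at 4.10 ± 2.61 TPM in RES and 5.77 ± 1.92 TPM in ADL. In the deposited values all these groups overlapped. After scaling, 1 of the 5 carriers (SLC25A6) and 2 of the 7 enzymes (ETFA and ETFB) were lower at an unadjusted p under 0.05. That stands beside 4.25% of all genes, and 0 were higher.

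Markers of the cells in a liver piece were read beside these results. The counts are of deposited values, where 71.0% of all tested genes were higher in RES. The 8 hepatocyte markers were present in every lamb and summed to 113750 to 154673 TPM in RES lambs and 154719 to 175653 TPM in ADL lambs, with 7 of 8 lower in RES. The macrophage markers summed to 902 to 1459 TPM in RES lambs and 998 to 1255 TPM in ADL lambs, with 6 of 9 tested lower. Red blood cell markers summed to 4.37 to 43.1 TPM in RES lambs and 23.002 to 91.3 TPM in ADL lambs, with both tested genes lower. All 6 bile duct markers were higher, with sums of 16.5 to 23.6 TPM in RES lambs and 13.8 to 22.4 TPM in ADL lambs. After scaling 4 of these 6 were higher, with a median of 0.02, beside 51.6% of all tested genes higher. Endothelial markers had 5 of 8 higher and sums of 200.2 to 221.5 TPM in RES lambs and 190.2 to 211 TPM in ADL lambs, while stellate cell markers had 4 of 8 higher and sums of 232 to 283 TPM in RES lambs and 237 to 369 TPM in ADL lambs. Lymphocyte markers had 3 of 6 tested higher and sums of 20.2 to 29.1 TPM in RES lambs and 19.1 to 31.5 TPM in ADL lambs. After scaling, 3 of 8 endothelial, 2 of 8 stellate cell and 3 of 6 lymphocyte markers were higher. So were 1 of 8 hepatocyte, 1 of 9 macrophage and 0 of 2 red blood cell markers. The hepatocyte sums were mostly ALB, which had 94305 to 133797 TPM in RES lambs and 131995 to 147825 TPM in ADL lambs. The other 7 hepatocyte markers summed to 19445 to 26049 TPM in RES lambs and 22489 to 27829 TPM in ADL lambs, with overlapping groups. The part of these markers in the results was not tested.

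Of the members named for their values, NDUFB1 lies on chromosome 18 from 55656810 to 55667939 in the authors' annotation, and NDUFA1 on chromosome X from 108761381 to 108764366. NDUFA10 lies on chromosome 1 from 1478515 to 1516360 and is annotated with 10 exons. NDUFA13 lies on chromosome 5 from 3544443 to 3552650, and NDUFB7 on the same chromosome from 9264863 to 9269449. NDUFC1 lies on chromosome 17 from 18046801 to 18050526, NDUFAF2 on chromosome 16 from 18233837 to 18409109 and NDUFAF4 on chromosome 8 from 39907727 to 39918506. The labels and the file name no genome build for these positions.

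Several members have copies elsewhere, so their values are uncertain as values of single genes. For 14 members, 21 other genes or pseudogenes with at least 1 TPM are described as the same subunit. For 4 members (ATP5L, COX5A, NDUFA5 and SDHD) these copies together held more TPM than the member. Summing each member with its copies turned the sign of 2 differences, those of ATP5G3 and UQCRH, which were near 0 either way.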

How the data were processed

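Poly(A) RNA of the liver of 8 lambs was sequenced as paired reads, per the labels' protocols. Of tools, the submitters' processing notes list DESeq2 1.12.4 and bcl2fastq 1.8.4, the tool behind the authors' deposited result columns and a read converter; no aligner, read counter, strand setting or genome build was found in the sources used here. The authors deposited 1 table with TPM per lamb and their own test, per the file headers: a mean of normalized counts (a signal scaled by size factors), shrunken log2 fold changes of RES over ADL with SE, a Wald statistic (a score, deposited but not used), and a p-value, deposited with its adjusted form. These were quoted, not recomputed.

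Groups were taken from the sample titles. TPM were put on the log2(TPM + 1) scale, the 13437 genes averaging 1 TPM or more stayed in, and RES lambs were set against ADL lambs in limma 3.58.1 (lmFit, eBayes with trend, two-sided; R 4.3.3) over all of them, with Benjamini-Hochberg adjustment and a threshold of 0.05. "Scaled" means TPM over median-of-ratios size factors. TPM times gene length, over the smallest such product of a library, gave whole reads for 100% of values within 1e-06. These totals give the depth, 14514084 to 16182407 per lamb, and voom was run on them as an alternative. Counting error is part of the spread between lambs and is larger in short, low genes.

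Other alternatives were pseudocounts of 0.1 and 5, no filter, a minimum of 5 TPM, removal of a length trend by lowess, the lamb number as a block, and each lamb left out. Summing copies and adding LOC genes were chosen after seeing the data. Within a group, no 2 libraries agreed within sampling noise. The members, the gene lists and the tests were chosen with earlier results of these data known, so lists got no test. Named members are those whose groups do not overlap or with an unadjusted p under 0.05, the 2 smallest p and the most abundant gene of each complex, the paired isoforms, complex II, CYC1 and CYCS, and the 2 smallest p of each list; cell type lists are given by their sums only. Scripts were tested on simulated data. 1 member counted in the sums and medians is not reported here by itself. Sequences of the members were not used here.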

Additional observations from a re-analysis of the deposited data

Results flagged for a closer look

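Of the 136 groups of 4 lambs (68 members in either group), 9 held a lamb that stood apart by Dixon's criterion for 4 samples, and chance flags about 1 in 20 groups. In RES these were lamb 2 for NDUFB1, at 17.2 TPM and above the others; lamb 4 for NDUFB11, at 91.1 TPM and below; lamb 1 for NDUFB9, at 116 TPM, and for NDUFC2, at 161 TPM, both above; and lamb 4 for SDHA, at 165 TPM and below. In ADL they were lamb 2 for ATP5G1, at 201.7 TPM and above the others; lamb 1 for NDUFA5, at 5.57 TPM and above; lamb 1 for NDUFS6, at 33.1 TPM and below; and lamb 2 for SDHA, at 195.5 TPM and below. SDHA was the member flagged in both groups. RES lambs 1 and 4 hold 4 of the 5 RES cases. Why these lambs stood apart was not tested.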

How the results depend on the processing

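No member passed the adjusted threshold under any alternative. The 41 named genes gave 696 alternative values, of which 26 had the other sign and 0 passed; the lowest adjusted p was 0.328. The cause of the changes below was not tested.

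With size factors, 1 member was higher at an unadjusted p under 0.05 in place of 4, and 15 in place of 38 were positive. Medians became -0.0723 over all members, -0.0693 for complex I and -0.104 for ATP synthase. ATP5B (-0.00309), ATP5G1 (-0.0723), NDUFA4 (-0.0693), SDHC (-0.0289) and SDHD (-0.0251) turned. Voom gave 0 and 15, medians of -0.0729, -0.0696 and -0.106, and turned the same genes: ATP5B (-0.00336), ATP5G1 (-0.0729), NDUFA4 (-0.0696), SDHC (-0.0296) and SDHD (-0.0265). Without the length trend 2 were higher at that mark, 29 were positive, ATP5G1 was -0.00562, and medians were -0.0251 over all members and -0.0254 for complex I, with 15 of its genes positive and 1 of its 7 core subunits. With the lamb number as a replicate block, 2 were higher and 1 lower in place of 2. The labels do not say whether numbers pair the lambs. Same-number correlations of deviations from group means were 0.153, -0.120, 0.0545 and 0.0577, against -0.142 to 0.0755 for other pairs. With 4 lambs a group, these cannot settle whether lambs or libraries were paired. With copies summed, complex IV was 0.0275, ATP5G3 0.00460 and UQCRH 0.0323; with LOC genes, complex IV was 0.0205.

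With each lamb left out, 2 to 3 members were higher and 0 to 3 lower at an unadjusted p under 0.05; the lower count was 0 without RES lamb 2, 3 or 4 or ADL lamb 3 and 1 without ADL lamb 1 or 2, and the higher count 2 without RES lamb 2 or 3 or ADL lamb 3. Positive members numbered 30 to 46. Medians ran from -0.0213 to 0.0559 over all members, -0.0136 to 0.0439 for complex I, 0.0670 to 0.191 for assembly factors, -0.0608 to 0.0379 for complex II, -0.0988 to 0.0817 for complex III, 0.0955 to 0.201 for complex IV and -0.0561 to 0.0379 for ATP synthase. Differences ran from -0.0493 to 0.107 for ATP5G1, -0.0757 to 0.0190 for ATP5G3, -0.0227 to 0.0699 for NDUFA4, -0.0148 to 0.194 for SDHD, -0.0988 to 0.0817 for UQCRH and -0.179 to 0.0333 for FMC1. With 4 lambs a group, depth limits NDUFB1 and NDUFA1, on at most 41 and 33 reads.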
